A study of Homo sapiens with 18 samples.

Results

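The 40 genes described here encode proteins of homologous recombination, the Fanconi anemia pathway, DNA damage checkpoints and a few other repair routes. They were taken as a list of named genes, which was drawn up with earlier results of these data known. Comparisons of the 40 with all genes therefore describe the list and do not test it. Each of the 40 genes has 1 row among the 60504 genes of the deposited table. All 40 passed the filter on low values, at least 1 TPM (transcript abundance per unit length, scaled to a fixed total per library) in at least 3 of the 18 libraries, which 14936 genes passed. RNA came from A375 cells, an established human melanoma line. They were either untreated or given IMD-0354, a small molecule best known as an inhibitor of the kinase IKK-beta. The design text spells the compound without the digit 5, and no vehicle is named for the untreated cells. There were 6 groups of 3 libraries each: untreated for 24 h, 0.32, 0.63 or 1.25 µM for 24 h, untreated for 48 h, and 0.63 µM for 48 h. No 0.32 or 1.25 µM group of 48 h was analysed here. Nothing in the labels ties the 3 libraries of a group to different cultures. The p-values therefore rest on the scatter among these libraries, which may be technical.

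Homologous recombination repairs a broken chromosome by copying the intact sister chromatid, so it works mainly in S and G2 phase, when a sister is present. The broken ends are first resected by the MRE11-RAD50-NBN complex with RBBP8 (CtIP) and EXO1. BRCA1, BARD1, PALB2 and BRCA2 then load a recombinase that searches for the matching sequence. The Fanconi anemia pathway recognises DNA crosslinked between its strands, marks FANCD2 and FANCI with ubiquitin and hands the lesion to recombination. ATM and ATR are the kinases that sense breaks and stalled forks, and CHEK2 and CHEK1 are the kinases they activate to hold the cell cycle. Several of these genes are textbook targets of E2F, the transcription factor family that drives genes of the G1/S transition.

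The 5 promoters shown are those of the genes with the largest falls at 1.25 µM among the called genes whose promoter holds a sequence word that matches the E2F consensus. RefSeq (GRCh38.p14) gave a promoter of 300 bases, from 250 before to 50 after the gene's start, for 36 of the 40 genes. RAD54B, FANCI, NBN and XRCC5 had no entry. Each sequence below runs 5′ to 3′ on the gene's strand, from 150 bases before to 30 bases after the RefSeq start, and capitals mark matches on either strand to an E2F word. An E2F word searched for was TTCCCGC, found in the first of these promoters. The same word with its middle changed, written TTCGCGC, was also counted. The remaining words counted as matches were the form TTGCCGC on either strand of a promoter and the form found in UNG, which is TTGGCGC. MSH6 lies at chr2:47782995-47783174 on the plus strand, RAD51AP1 at chr12:4538740-4538919 on the plus strand and UNG at chr12:109097447-109097626 on the plus strand. FANCL lies at chr2:58241296-58241475 on the minus strand and PARP1 at chr1:226408064-226408243 on the minus strand.
MSH6: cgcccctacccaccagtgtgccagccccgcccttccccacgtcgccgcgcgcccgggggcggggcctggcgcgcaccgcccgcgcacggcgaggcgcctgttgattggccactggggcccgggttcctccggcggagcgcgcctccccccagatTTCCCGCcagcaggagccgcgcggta
RAD51AP1: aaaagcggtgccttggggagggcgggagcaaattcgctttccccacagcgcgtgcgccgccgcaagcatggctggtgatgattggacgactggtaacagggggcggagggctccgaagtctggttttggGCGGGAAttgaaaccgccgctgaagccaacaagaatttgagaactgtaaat
UNG: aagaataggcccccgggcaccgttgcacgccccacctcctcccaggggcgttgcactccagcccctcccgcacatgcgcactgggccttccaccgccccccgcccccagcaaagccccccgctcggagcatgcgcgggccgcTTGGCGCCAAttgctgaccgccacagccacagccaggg
FANCL: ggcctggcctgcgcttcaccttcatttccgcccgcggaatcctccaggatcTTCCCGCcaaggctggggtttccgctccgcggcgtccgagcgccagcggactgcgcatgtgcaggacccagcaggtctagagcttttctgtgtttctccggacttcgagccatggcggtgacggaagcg
PARP1: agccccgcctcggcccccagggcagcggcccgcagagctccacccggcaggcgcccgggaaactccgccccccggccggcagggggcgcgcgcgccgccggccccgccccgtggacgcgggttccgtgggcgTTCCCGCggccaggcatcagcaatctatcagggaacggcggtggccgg

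The MSH6 word begins at base 5 after the start, counting the start as base 1. The words in RAD51AP1 and PARP1 begin 21 and 18 bases before the start, and that in FANCL begins 99 bases before it. In UNG, 2 words on opposite strands overlap, beginning 8 and 5 bases before the start, and the second of them runs into a CCAAT box. Over the full 300 bases, 19 of the 36 promoters (52.8%) held at least 1 such word, against 21% of the 10093 promoters of genes tested and 13.1% of all 27305 promoters. The word for the CHR element of late cell cycle genes (TTTGAA or TTCGAA, either strand) was in 5 of the 36 (13.9%), against 11.2% of the promoters of genes tested. CCAAT was in 18 of the 36 (50%), against 37.3%. Of the other genes called lower at 1.25 µM, BARD1, FANCD2 and XRCC6 held an E2F word and BRCA2, FANCB and MRE11 held no E2F word. None of the 5 checkpoint kinase promoters held an E2F word. A match is a description of letters in this window, not evidence of binding.

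**Figure D1:**
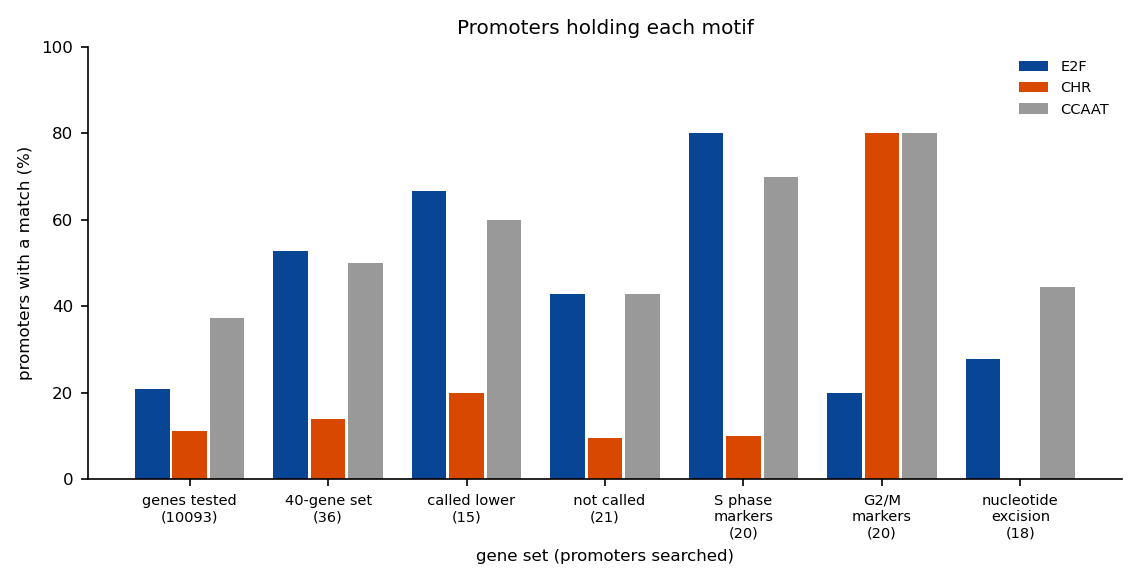
Percent of promoters (vertical axis, bars) that hold an E2F word, a CHR word or CCAAT within 300 bases of the start, for the repair genes, their called and uncalled subsets, cell cycle marker lists, nucleotide excision repair genes and all genes tested, with the number of promoters in brackets. The E2F word was in 52.8% of the repair gene promoters and in 21% of the promoters of genes tested.

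At 1.25 µM for 24 h, 13 of the 40 genes fell and none rose. At 0.63 µM for 48 h, 10 fell and none rose, while 3 fell at that dose for 24 h and none at 0.32 µM. The genes that fell carry distinct tasks: MSH6 (mismatch recognition), PARP1 (strand break signalling), XRCC6 (end binding), UNG (uracil removal), BRCA2 and RAD51AP1 (recombination) and FANCL (the Fanconi ubiquitin ligase) were among them. Summed over the 40 genes, the level was 2047 ± 365 TPM (SD, n = 3) in untreated cells at 24 h, 1805 ± 75.8 at 0.32 µM, 1577 ± 72.6 at 0.63 µM and 1084 ± 137 at 1.25 µM. At 48 h the sum was 1748 ± 178 TPM in untreated and 1077 ± 105 TPM in treated cells. Abundant genes weigh most in these sums: 3 of the 40 averaged 100 TPM or more over all libraries and 12 averaged under 10 TPM. XRCC5 alone measured 387, 540 and 427 TPM in untreated cells at 24 h. In RNA from whole cultures, fewer cells of a state that expresses a gene and less RNA per cell cannot be told apart.

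A gene was called lower or higher when limma on log2(TPM + 1), with the spread shared over all 6 groups, gave a Benjamini-Hochberg adjusted p under 0.05 over the 14936 genes tested. The 13 genes called lower at 1.25 µM are 32.5% of the 40, against 6.36% of all genes tested called lower and 4.94% called higher. The 10 called lower at 48 h are 25% of the 40, against 5.68% called lower and 1.95% called higher. These backgrounds depend on level: with the filter set at 5 TPM, 9530 genes were tested. Of those, 10.1% were called lower at 1.25 µM and 9.71% at 48 h. The 3 called lower at 0.63 µM for 24 h (BRCA2, MSH6 and PARP1) are 7.5% of the 40, against 0.824% lower and 1.36% higher. At 0.32 µM the background was 0.0201% lower and 0.00670% higher, no repair gene was called by limma, and 1 had an unadjusted p under 0.05. The 3 comparisons at 24 h share the same untreated libraries.

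The median log2 change of the 40 genes was -0.09 at 0.32 µM, -0.12 at 0.63 µM, -0.76 at 1.25 µM and -0.75 at 0.63 µM for 48 h. Over all genes tested these medians were -0.00, 0.00, -0.01 and -0.15. Rescaling the libraries by the median of ratios moved the 48 h median of all genes from -0.15 to 0.00 and that of the 40 genes to -0.59, with 35 of 40 below 0. Under that scaling 507 genes were called lower and 492 higher at 48 h, against 849 and 291 without it, and 8 of the 40 genes were called lower. Every library value at 1.25 µM lay below every untreated value for 18 of the 40 genes, against 13.7% of all genes tested. At 48 h this held for 26 of the 40, against 21.3%. At 0.63 µM for 24 h it held for 10 of the 40, against 9.26%, and at 0.32 µM for 4, against 4.59%. The reverse order, every treated value above every untreated one, held for 1 gene at 0.32 µM, against 4.08% of genes tested. It held for none at 0.63 or 1.25 µM for 24 h, against 10.0% and 12.4%.

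Single libraries bore on these counts. Untreated 24 h replicate 2 was the highest of its group for 26 of the 40 genes, 1.25 µM replicate 3 the lowest for 24, and the third replicates of both 48 h groups the lowest for 25 each. Leaving out 1.25 µM replicate 3 left 8 calls at 1.25 µM. At 48 h, 4 calls were left without 0.63 µM replicate 3, 5 without untreated replicate 2 and 6 without untreated replicate 1. At 0.63 µM for 24 h, 1 call was left without untreated replicate 2, 1 without 0.63 µM replicate 1 and none without 0.63 µM replicate 3. When only the libraries compared entered the fit, 3 of the 13 calls at 1.25 µM remained (RAD51AP1, MSH6 and PARP1), and calls over all genes fell to 166 lower and 158 higher. At 48 h the same kind of fit kept the 10 calls and added 4 (BRCA2, RAD54L, FANCG and FANCL), with 1058 genes lower and 403 higher over all genes.

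**Figure D2:**
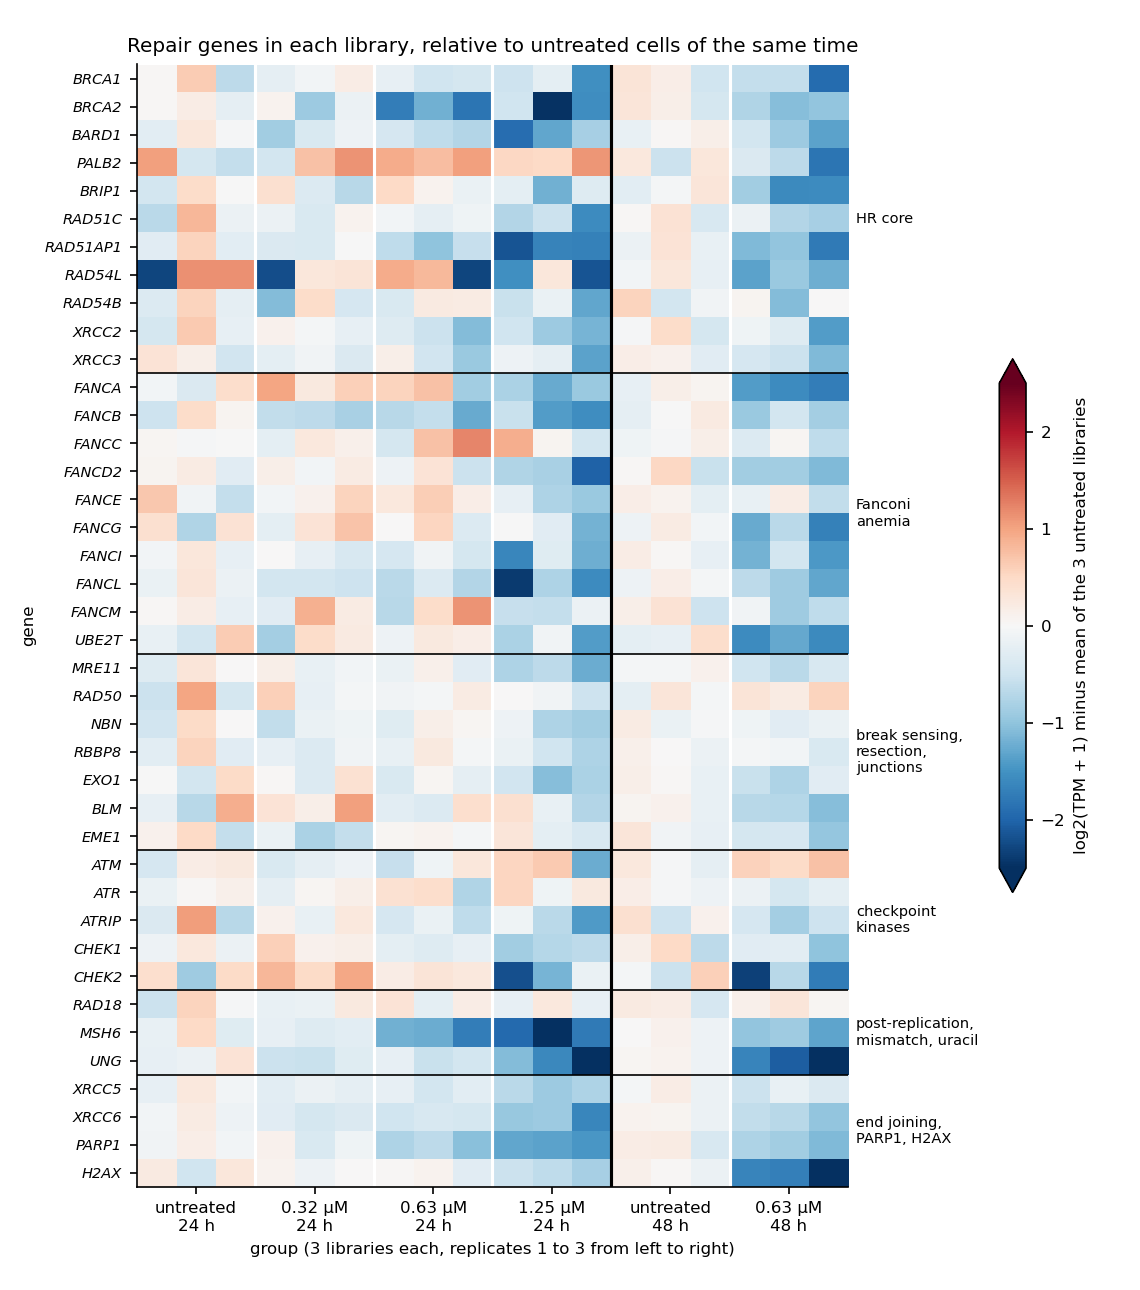
Log2(TPM + 1) of each of the 40 genes (rows, grouped by role) in each of the 18 libraries (columns), shown as the difference from the gene's mean in untreated cells of the same time; colours end at the limits of the scale. Blue predominates in the 1.25 µM columns and in the treated 48 h columns. At 0.32 µM the estimate lies below 0 for 27 of the 40 genes, against 50.8% of genes tested, with a median of -0.09 and no call.

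**Figure D3:**
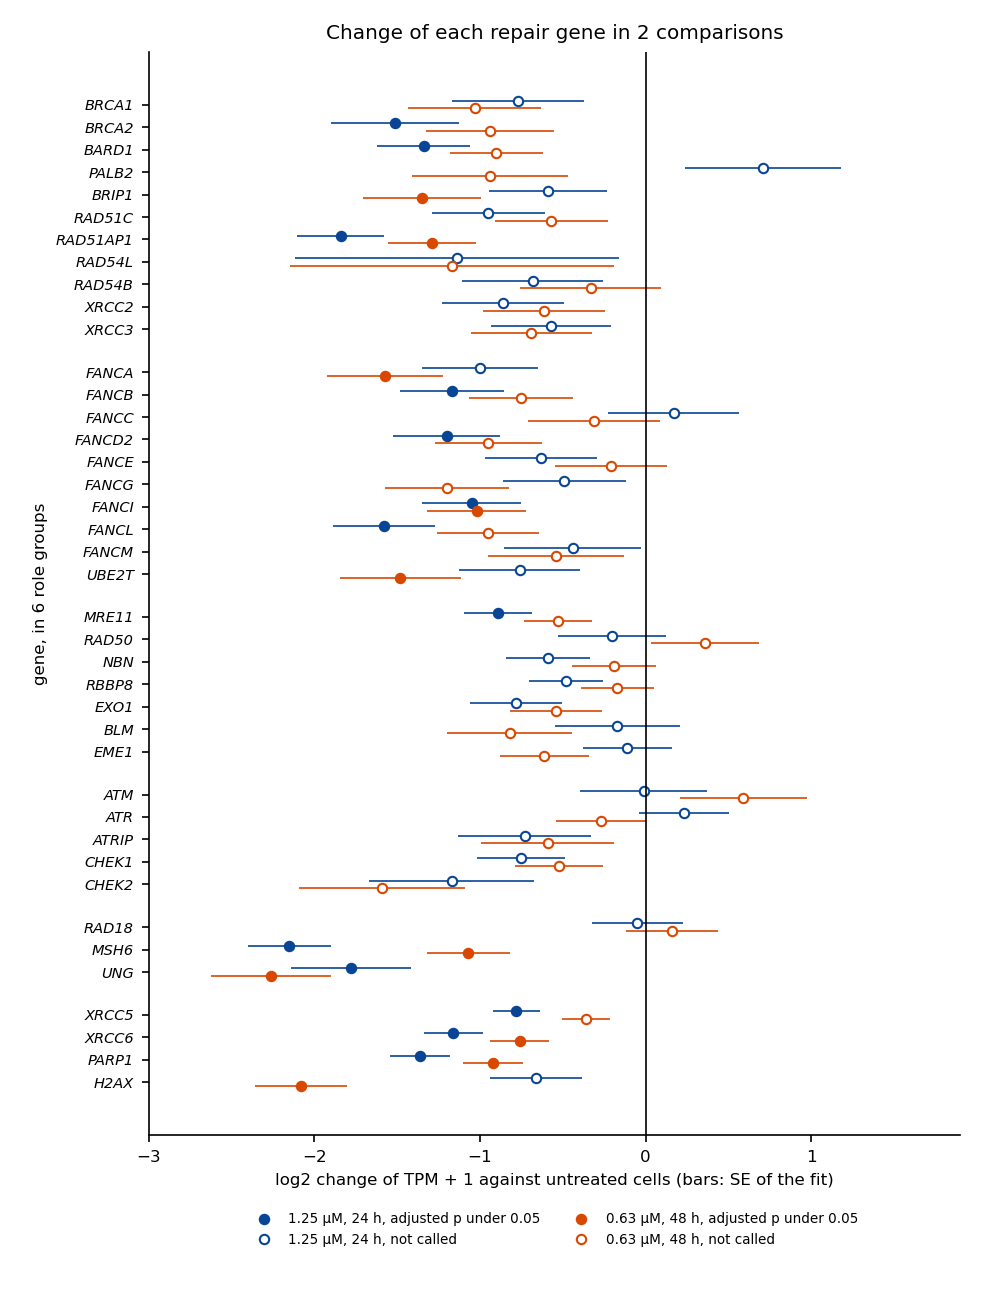
Log2 change of TPM + 1 (points) with the SE of the fit (bars) for each of the 40 genes at 1.25 µM for 24 h and at 0.63 µM for 48 h, each against untreated cells of the same time; filled symbols mark calls. The estimate lies below 0 for 37 of 40 genes in each comparison, against 51.7% of genes tested at 1.25 µM and 60.8% at 48 h. The largest falls are those of MSH6 at 1.25 µM (-2.15) and UNG at 48 h (-2.26).

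MSH6 recognises mispaired bases left by replication. It measured 144, 235 and 133 TPM in untreated cells at 24 h, 143, 133 and 137 TPM at 0.32 µM, 71.5, 69.1 and 48.9 TPM at 0.63 µM, and 42.4, 23.9 and 48.1 TPM at 1.25 µM. The 0.63 and 1.25 µM libraries all lay below the untreated ones and did not overlap each other. MSH6 fell by 1.39 on the log2 scale (SE 0.25, adjusted p = 0.0119) at 0.63 µM and by 2.15 (SE 0.25, adjusted p = 5.57e-05) at 1.25 µM. At 48 h it measured 145, 155 and 132 TPM in untreated and 71.9, 77.2 and 56.7 TPM in treated cells, again without overlap. The fall at 48 h was 1.07 (SE 0.25, adjusted p = 0.0149). The 0.63 µM call at 24 h was lost without 0.63 µM replicate 3 (adjusted p = 0.0794). The 48 h call was lost without untreated replicate 1 (0.0533) or 2 (0.0642) or treated replicate 3 (0.0807).

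UNG removes uracil from DNA and has a replication-linked nuclear form. It measured 20, 20.8 and 29.8 TPM in untreated cells at 24 h and 10.4, 6.91 and 2.84 TPM at 1.25 µM. At 48 h it measured 21.6, 22.3 and 19.2 TPM in untreated and 6.00, 4.28 and 1.62 TPM in treated cells. The groups did not overlap at either time. UNG fell by 1.78 (SE 0.362, adjusted p = 0.00472) at 1.25 µM and by 2.26 (SE 0.362, adjusted p = 0.00109) at 48 h, 4.78-fold on the TPM + 1 scale and the largest fall of the 40 genes at that time. At 0.63 µM for 24 h the libraries held 20.1, 15.5 and 16.6 TPM and the change of -0.40 did not pass (adjusted p = 0.611). RAD18, the ubiquitin ligase that opens DNA damage tolerance, was not called: it measured 9.79, 22.2 and 14.49 TPM in untreated cells at 24 h and 12.6, 17.9 and 12.6 TPM at 1.25 µM. Its change there was -0.05 (95% interval -0.64 to 0.53).

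PARP1, which binds strand breaks and builds poly(ADP-ribose) chains, measured 200, 241 and 203 TPM in untreated cells at 24 h, 124.9, 136 and 103 TPM at 0.63 µM, and 86.2, 84.2 and 77.2 TPM at 1.25 µM. These 3 groups were separate from each other. The falls were 0.82 (SE 0.181, adjusted p = 0.0309) and 1.36 (SE 0.181, adjusted p = 0.000186). At 48 h PARP1 measured 210, 213 and 140 TPM in untreated and 107, 99.9 and 84.8 TPM in treated cells. It fell by 0.92 (SE 0.181, adjusted p = 0.00506). The call at 0.63 µM for 24 h was lost without untreated replicate 2 (adjusted p = 0.0846), 0.63 µM replicate 1 (0.065) or 0.63 µM replicate 3 (0.146).

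XRCC5 and XRCC6 encode Ku80 and Ku70, the ring that holds broken ends for nonhomologous end joining, the route that needs no sister. XRCC6 measured 131, 160 and 126 TPM in untreated cells at 24 h and 71.0, 73.0 and 44.0 TPM at 1.25 µM. It fell by 1.16 (SE 0.18, adjusted p = 0.000688). XRCC5 measured 387, 540 and 427 TPM in untreated cells and 281, 239 and 261 TPM at 1.25 µM, and fell by 0.78 (SE 0.143, adjusted p = 0.00246). Neither gene's groups overlapped. At 48 h XRCC6 measured 124.6, 124 and 106 TPM in untreated and 76.6, 72.8 and 59.3 TPM in treated cells, and fell by 0.76 (SE 0.18, adjusted p = 0.0156). XRCC5 changed by -0.36 at 48 h and did not pass (adjusted p = 0.149). The 48 h call of XRCC6 was lost without untreated replicate 1 (0.0676) or 2 (0.0666) or treated replicate 3 (0.0861). XRCC5 had the highest mean level of the 40 genes in every group and PARP1 the next, with means over all libraries of 350 and 150 TPM. TPM divides by transcript length while a 3' library yields about 1 tag per transcript, so levels are less comparable between genes than between groups.

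H2AX encodes the histone variant that is phosphorylated around breaks. Its gene yields both a replication-linked transcript without a poly(A) tail and a polyadenylated one. It measured 53.5, 32.2 and 55.6 TPM in untreated cells at 24 h, 47.0, 48.5 and 37.2 TPM at 0.63 µM and 31.4, 29.3 and 25.5 TPM at 1.25 µM. The first of these doses overlapped the untreated range, and the change was -0.06 (adjusted p = 0.947). The change at 1.25 µM was -0.66 and did not pass (adjusted p = 0.144). At 48 h H2AX measured 39.7, 37.3 and 32.9 TPM in untreated and 11.0, 10.4 and 4.12 TPM in treated cells. It fell by 2.08 (SE 0.278, adjusted p = 0.000272), 4.23-fold on the TPM + 1 scale.

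**Figure D4:**
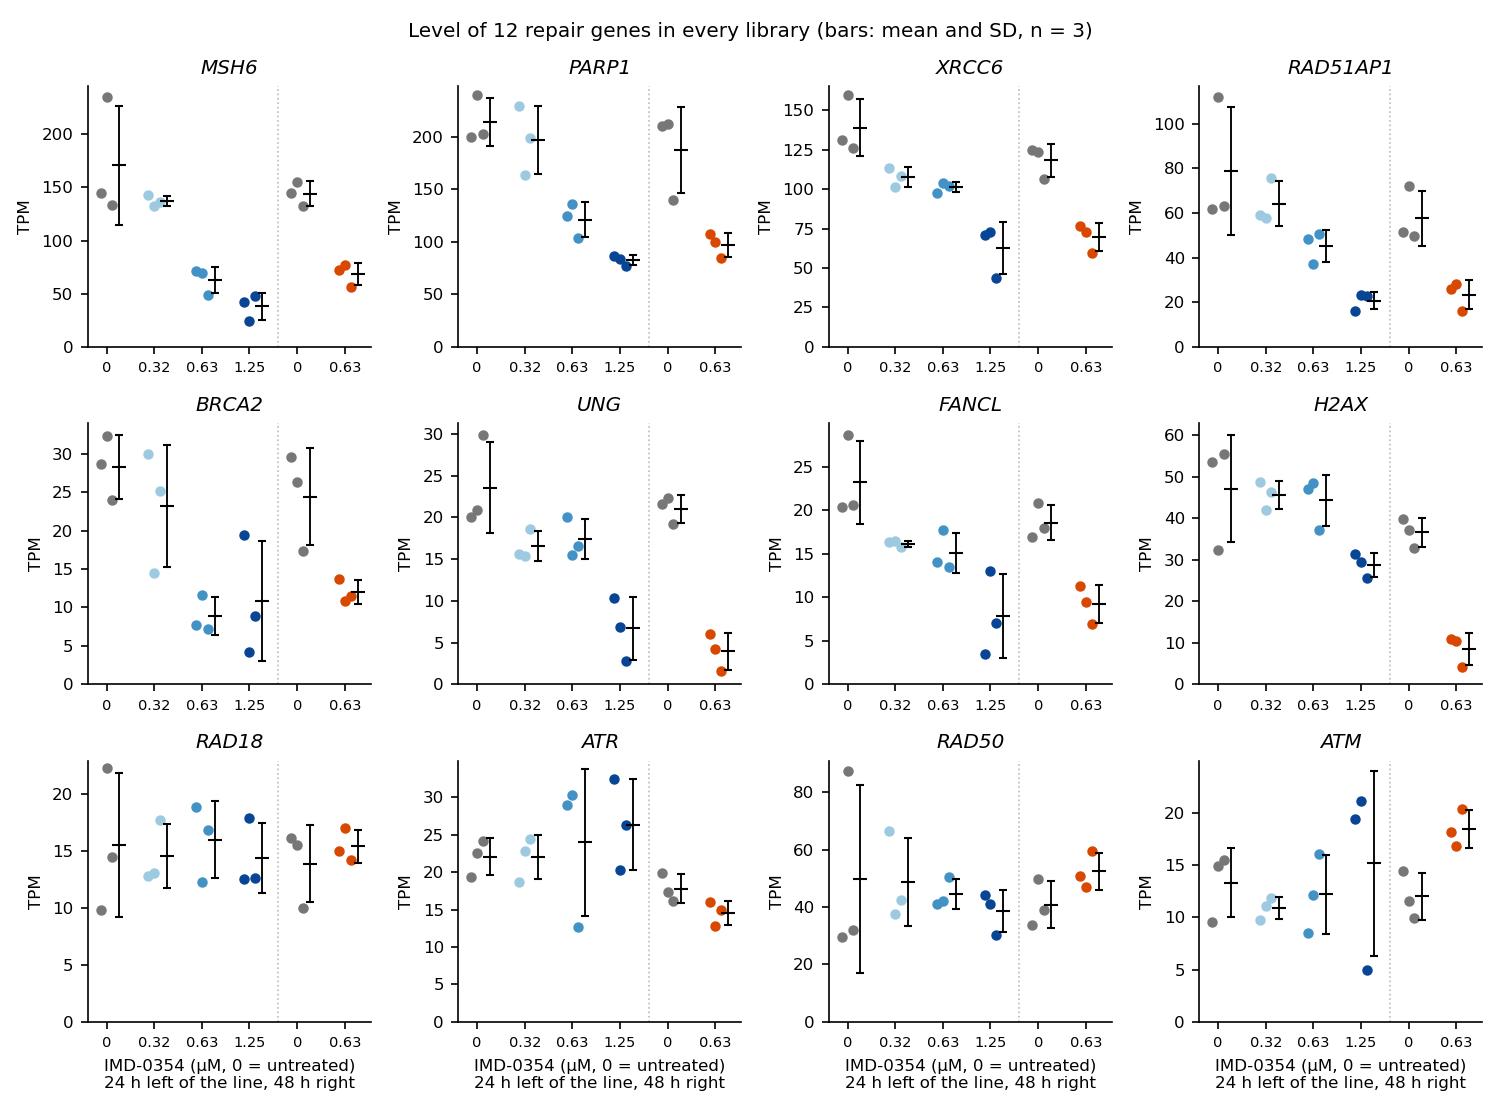
TPM per library (points, vertical axis) and group mean with SD (bars) for 12 repair genes by dose and time. MSH6 and PARP1 step down from untreated to 0.63 to 1.25 µM at 24 h, and H2AX is lowest in the treated 48 h libraries, at 4.12 to 11.0 TPM.

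Of the 11 genes of the recombination core, 3 fell at 1.25 µM (BRCA2, BARD1 and RAD51AP1) and 2 at 48 h (BRIP1 and RAD51AP1), with medians of -0.86 and -0.94. RAD51AP1, a cofactor that stimulates strand invasion, measured 61.8, 112 and 63.04 TPM in untreated cells at 24 h, 48.3, 37.1 and 50.5 TPM at 0.63 µM, and 16.1, 23.2 and 23.0 TPM at 1.25 µM. The 3 groups did not overlap. It fell by 1.84 (SE 0.264, adjusted p = 0.000384) at 1.25 µM. At 48 h it measured 51.3, 71.9 and 49.9 TPM in untreated and 26.1, 28.03 and 15.96 TPM in treated cells, a fall of 1.29 (SE 0.264, adjusted p = 0.00667).

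BRCA2, the loader of the recombinase, measured 28.7, 32.3 and 24.0 TPM in untreated cells at 24 h, 7.72, 11.7 and 7.19 TPM at 0.63 µM, and 19.5, 4.26 and 8.85 TPM at 1.25 µM. Both doses lay below the untreated range, with no step between them. It fell by 1.59 (SE 0.386, adjusted p = 0.0443) at 0.63 µM and by 1.51 (SE 0.386, adjusted p = 0.0187) at 1.25 µM. At 48 h it measured 29.6, 26.4 and 17.4 TPM in untreated and 13.7, 10.8 and 11.5 TPM in treated cells, and the change of -0.94 did not pass (adjusted p = 0.164). The BRCA2 call at 0.63 µM was lost without any 1 of untreated replicates 1 and 2 and the 3 treated libraries, with adjusted p from 0.0605 to 0.17. At 1.25 µM it was lost without untreated replicate 2 (0.0576) or 1.25 µM replicate 2 (0.0849) or 3 (0.0588).

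BARD1, the partner of BRCA1 in its ubiquitin ligase, measured 40.4, 59.5 and 47.8 TPM in untreated cells at 24 h and 12.2, 19.3 and 27.1 TPM at 1.25 µM. The groups did not overlap, and BARD1 fell by 1.34 (SE 0.28, adjusted p = 0.00567). At 48 h its change of -0.90 did not pass (adjusted p = 0.0624). It was called there with a filter at 5 TPM (0.0448) and without treated replicate 1 (0.0388). BRIP1, the helicase that binds BRCA1, was a low gene. It measured 5.63, 6.72 and 8.79 TPM in untreated cells at 48 h and 3.34, 1.62 and 1.68 TPM in treated cells, a fall of 1.35 (SE 0.356, adjusted p = 0.0287). That call was lost under median-of-ratios scaling (adjusted p = 0.0559) and quantile normalization (0.0511). It was also lost without any untreated 48 h library or without treated replicate 2 or 3, with adjusted p from 0.0546 to 0.116.

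BRCA1 itself was not called. It measured 28.4, 44.2 and 17.3 TPM in untreated cells at 24 h and 19.2, 23.4 and 9.01 TPM at 1.25 µM, with overlap, and its change of -0.77 had an adjusted p of 0.245. At 48 h the groups did not overlap (34.3, 30.5 and 18.9 TPM against 17.68, 17.66 and 6.41 TPM), and the change of -1.03 did not pass (adjusted p = 0.141). RAD51C, a paralog of the recombinase, measured 36.7, 107 and 53.6 TPM in untreated cells at 24 h and 35.3, 40.9 and 19.3 TPM at 1.25 µM, and its change of -0.95 did not pass (adjusted p = 0.0872). It was called there without untreated replicate 1 (0.0274). PALB2, which bridges BRCA1 and BRCA2, had estimates of 0.71 at 1.25 µM and -0.94 at 48 h, and neither passed (adjusted p = 0.379 and 0.268). RAD54L was at 0 TPM in 1 untreated and 1 treated 24 h library and at 9.85 TPM in another untreated one. Its estimate of -1.14 at 1.25 µM had an SE of 0.978, the widest of the 40 genes. RAD54B, XRCC2 and XRCC3 had estimates from -0.86 to -0.57 at 1.25 µM and from -0.69 to -0.33 at 48 h, none of which passed.

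Of the 10 Fanconi anemia genes, 4 fell at 1.25 µM (FANCL, FANCD2, FANCB and FANCI) and 3 at 48 h (FANCA, UBE2T and FANCI), with medians of -0.88 and -0.95. FANCL, the ubiquitin ligase subunit, measured 20.3, 28.7 and 20.6 TPM in untreated cells at 24 h and 3.53, 13.02 and 6.99 TPM at 1.25 µM. It fell by 1.58 (SE 0.308, adjusted p = 0.0036). FANCD2, the substrate of that ligase, measured 68.6, 75.5 and 53.9 TPM in untreated cells and 38.4, 36.8 and 15.3 TPM at 1.25 µM, and fell by 1.20 (SE 0.323, adjusted p = 0.025). Neither pair of groups overlapped. At 48 h both had a change of -0.95, which passed for neither (adjusted p = 0.0741 for FANCL and 0.0892 for FANCD2). FANCD2 was called there without untreated replicate 3 (0.0476).

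FANCI, the partner of FANCD2, measured 38.8, 49.8 and 35.2 TPM in untreated cells at 24 h and 12.5, 33.1 and 16.98 TPM at 1.25 µM, a fall of 1.05 (SE 0.301, adjusted p = 0.0332). At 48 h it measured 42.6, 37.9 and 32.2 TPM in untreated and 15.97, 26.8 and 13.2 TPM in treated cells, a fall of 1.02 (SE 0.301, adjusted p = 0.0481). Both calls of FANCI lay near the threshold. FANCB, a subunit of the core complex, measured 4.16, 9.04 and 6.65 TPM in untreated cells at 24 h and 3.99, 1.79 and 1.52 TPM at 1.25 µM, and fell by 1.17 (SE 0.313, adjusted p = 0.0242). Of the 4 calls at 1.25 µM, that of FANCL kept its side of the threshold with each library left out. FANCD2 lost its call without untreated replicate 1 or 2 or 1.25 µM replicate 3 (adjusted p from 0.0639 to 0.12). FANCB lost it without untreated replicate 2 or 3 or 1.25 µM replicate 2 or 3 (0.0543 to 0.104), and FANCI without untreated replicate 1 or 2 or 1.25 µM replicate 1 or 3 (0.063 to 0.141). At 48 h FANCI lost its call under median-of-ratios scaling (0.103), quantile normalization (0.0943) and without each library other than treated replicate 2 (0.071 to 0.21).

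FANCA, a core complex subunit, measured 13.02, 16.8 and 15.9 TPM in untreated cells at 48 h and 5.13, 4.42 and 3.9 TPM in treated cells. It fell by 1.57 (SE 0.35, adjusted p = 0.0115). UBE2T, the ubiquitin-conjugating enzyme that works with FANCL, measured 53.7, 55.3 and 86.6 TPM in untreated and 20.6, 25.8 and 20.4 TPM in treated cells at 48 h, and fell by 1.48 (SE 0.365, adjusted p = 0.0194). Both genes were separate between the groups at 48 h. At 1.25 µM for 24 h neither passed: FANCA changed by -1.0 (adjusted p = 0.0784) and UBE2T by -0.76 (adjusted p = 0.202). The 48 h call of FANCA was lost without untreated replicate 2 (0.0505) or treated replicate 3 (0.0533). That of UBE2T was lost without untreated replicate 3 (0.0855) or treated replicate 1 (0.0591) or 3 (0.0793). FANCG, FANCC, FANCE and FANCM were not called in any comparison. FANCG had an estimate of -1.20 at 48 h (adjusted p = 0.0614). It was called there with a filter at 5 TPM (0.0442) and without treated replicate 2 (0.0449). The other 3 lay between -0.63 and 0.17 at 1.25 µM and between -0.54 and -0.21 at 48 h.

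Among the 7 genes of break sensing, resection and junction processing, MRE11 was the only one called in the fit of all 18 libraries. This nuclease, which starts resection, measured 19.1, 30 and 24.2 TPM in untreated cells at 24 h and 13.6, 14.98 and 9.63 TPM at 1.25 µM. The groups did not overlap, and it fell by 0.89 (SE 0.205, adjusted p = 0.0108). The call was lost without 1.25 µM replicate 3 (adjusted p = 0.0582). Its partners did not pass: RAD50 changed by -0.20 (adjusted p = 0.763) and NBN by -0.59 (adjusted p = 0.147). RBBP8 measured 69.7, 125.1 and 69.0 TPM in untreated cells and 74.9, 59.6 and 49.3 TPM at 1.25 µM, with overlap. EXO1, a resection nuclease, did not overlap between those groups (7.07, 4.88 and 10.3 TPM against 4.81, 2.91 and 3.69 TPM), and its change of -0.78 did not pass (adjusted p = 0.0827). It was called there without untreated replicate 2 (0.0383). BLM and EME1, which act on joint molecules, had estimates of -0.17 and -0.11 at 1.25 µM and of -0.82 and -0.61 at 48 h, none of which passed.

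None of the 5 checkpoint kinase genes was called in any comparison by limma, and at 1.25 µM 2 had an unadjusted p under 0.05. CHEK1, the effector kinase of ATR, measured 39.8, 52.0 and 39.2 TPM in untreated cells at 24 h and 23.2, 26.0 and 27.2 TPM at 1.25 µM. The groups did not overlap, and the change of -0.75 did not pass (adjusted p = 0.0814). CHEK2, the effector kinase of ATM, measured 11.49, 7.99 and 18.6 TPM in untreated and 1.59, 7.0 and 2.86 TPM in treated cells at 48 h, and its change of -1.59 did not pass (SE 0.499, adjusted p = 0.0639). Among the alternatives, CHEK2 was called lower at 48 h with a filter at 5 TPM (adjusted p = 0.0459) and without treated replicate 2 (0.0311). ATM measured 14.47, 11.6 and 9.98 TPM in untreated and 18.1, 16.9 and 20.4 TPM in treated cells at 48 h. It was the only one of the 40 genes with every treated value above every untreated value there, against 9.23% of genes tested, and the change of 0.59 did not pass (adjusted p = 0.415). At 1.25 µM ATM changed by -0.01 (95% interval -0.83 to 0.80) and ATR by 0.23 (95% interval -0.35 to 0.80). The interval of ATM reaches the size of the fall called for XRCC5.

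Group means at 24 h were examined for an order by dose, with the lowest dose left out. The means went down in the order untreated, 0.63 and 1.25 µM for 27 of the 40 genes (67.5%), against 22.4% of genes tested, and went up in that order for 1, against 19.7%. Compared directly, 1.25 µM was lower than 0.63 µM with no overlap for 17 of the 40 genes, against 11.1% of genes tested, and higher for none, against 8.94%. By limma 1 gene was called lower in that comparison, RAD51AP1, against 1.04% of genes tested, and none higher, against 0.469%. RAD51AP1 was lower at 1.25 than at 0.63 µM by 1.10 on the log2 scale (a log2 change of -1.10, SE 0.264, adjusted p = 0.0495). That call was lost with any 1 of the 6 libraries left out (adjusted p from 0.075 to 0.139). The next were XRCC6 at -0.72 (adjusted p = 0.0582) and UNG at -1.38 (adjusted p = 0.0688).

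Untreated cells were compared between 48 and 24 h. Limma called none of the 40 genes, 3 had an unadjusted p under 0.05, and the background was 0.0134% lower and 0% higher. All values at 48 h lay below those at 24 h for 1 gene (XRCC6), against 7.65% of genes tested, and above them for 1 (FANCA), against 4.87%. Whether 0.63 µM acted differently at 48 h than at 24 h was tested as an interaction, which called none of the 40 genes. The background was 0.0201% lower and 0.0134% higher, and 8 of the 40 had an unadjusted p under 0.05. The largest differences among the 40 genes were those of H2AX at -2.02 (SE 0.394, adjusted p = 0.0793), PALB2 at -1.86 (SE 0.668, adjusted p = 0.28), UNG at -1.85 (SE 0.512, adjusted p = 0.154) and CHEK2 at -1.85 (SE 0.706, adjusted p = 0.306). FANCA followed at -1.70 (SE 0.495, adjusted p = 0.181), UBE2T at -1.57 and BRIP1 at -1.49. A fall at 48 h that did not pass at 24 h is therefore not shown to differ between the times for any of these genes. The exception by library is FANCA, whose difference was -2.20 (adjusted p = 0.0412) without 0.63 µM replicate 3 of 24 h.

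The comparisons of 1.25 µM at 24 h and 0.63 µM at 48 h share no library. Between them, 6 of the 40 genes fell in both: FANCI, MSH6, PARP1, RAD51AP1, UNG and XRCC6. They are 46.2% of the 13 and 60% of the 10. Over all genes tested, 391 genes fell in both, 41.2% of the 950 and 46.1% of the 849. Across the 40 genes the 2 sets of changes had a Pearson r of 0.51 and a Spearman rho of 0.55, as a description across genes of the same libraries. Both estimates were below 0 for 34 of them. Over all genes tested, 51.7% were below 0 at 1.25 µM and 60.8% at 48 h. Of the 40 genes, 17 were called lower in at least 1 of the 4 comparisons with untreated cells, against 9.55% of genes tested, and 23 were called in none. At 1.25 µM, 1 of the 12 genes with a mean under 10 TPM was called, as were 12 of the 28 others. The share of all genes called at those levels is not given here. With a filter at 5 TPM, 10.1% of 9530 genes were called lower there.

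Other repair pathways were listed without the 40 genes. Of 29 other recombination genes, 2 fell at 1.25 µM (RMI1 at -1.50 and SWSAP1 at -1.36) and 7 at 48 h, among them the RPA1, RPA2 and RPA3 subunits of the single-strand binding complex at -1.31, -0.83 and -1.15. Over all genes tested 6.36% were called lower at 1.25 µM and 5.68% at 48 h, so the first of these counts lies near the background. MUS81, the junction nuclease whose partner is EME1, rose at 0.63 µM for 24 h by 1.02 (adjusted p = 0.0457). Of 17 other Fanconi and crosslink genes, CENPS fell (-0.99) and ERCC1 rose (1.13, adjusted p = 0.00715) at 1.25 µM. Both counts lie near the background there, 6.36% of genes tested called lower and 4.94% called higher. Of 13 other checkpoint genes, CLSPN (-1.91, adjusted p = 0.00176) and TIMELESS (-1.11), which support ATR signalling at forks, fell at 1.25 µM, and 4 fell at 48 h. None of the 8 other end joining genes was called at either, with medians of 0.02 and -0.05. At 1.25 µM 1 of them had an unadjusted p under 0.05, and at 48 h 0 did.

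PCNA, the replication clamp that mismatch repair also uses, fell by 1.56 on the log2 scale at 1.25 µM (adjusted p = 0.0072) and by 2.29 at 48 h. Of 22 other base excision genes, LIG1 (-1.52), NEIL3 (-1.29) and PARP2 (-0.89) fell at 1.25 µM, against 6.36% of genes tested called lower. The 18 nucleotide excision repair genes had a median change of 0.32 at 1.25 µM. Of them 2 were called lower and 1 higher there, against 6.36% and 4.94% of genes tested. At 48 h their median was -0.05, with 1 called lower and 0 higher, against 5.68% and 1.95%. None of the 11 translesion genes was called by limma at 1.25 µM or at 48 h, where 3 and 2 had an unadjusted p under 0.05. Of 18 genes of the break response and BRCA1 complexes, 1 fell in each comparison, SHLD2 (-0.87) at 1.25 µM and BABAM1 (-0.60) at 48 h. Each count lies near the share of genes tested called lower, 6.36% at 1.25 µM and 5.68% at 48 h.

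**Figure D5:**
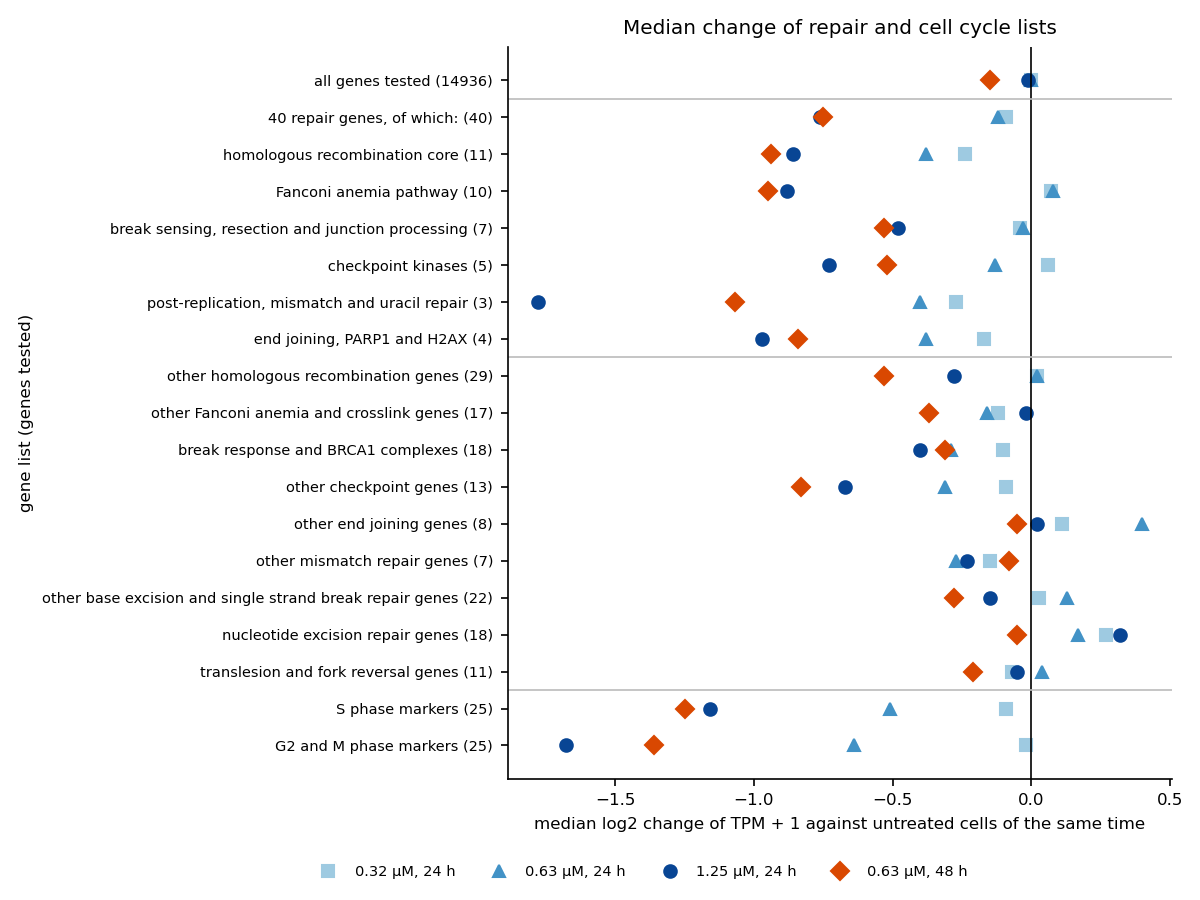
Median log2 change (horizontal axis) of each gene list against untreated cells of the same time, with the number of genes tested in brackets and a symbol per dose and time. The 40 repair genes lie at -0.76 for 1.25 µM and -0.75 at 48 h, and the G2 and M phase markers have the lowest median of the lists outside the 40 genes in both.

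Cell cycle genes moved with the repair genes. Of 25 S phase markers, 14 fell at 1.25 µM (median -1.16) and 15 at 48 h (median -1.25). Of 25 G2 and M phase markers, 23 fell at 1.25 µM (median -1.68) and 21 at 48 h (median -1.36), CDK1 by 2.74 and CCNB1 by 2.13 at 1.25 µM. No marker of either list rose in these comparisons. Over all genes tested, 6.36% were called lower and 4.94% higher at 1.25 µM, and 5.68% and 1.95% at 48 h. At 0.63 µM for 24 h, 1 S phase marker (GMNN) and 3 G2/M markers (CCNB1, BIRC5 and NUSAP1) fell, beside 3 of the 40 repair genes and 0.824% of genes tested. E2F1 (-1.77, adjusted p = 0.0036), MYBL2 (-2.09, adjusted p = 0.00123), FOXM1 (-1.44) and TFDP1 (-0.87) fell and E2F7, a repressor of the family, rose (1.39, adjusted p = 0.00498) at 1.25 µM, the 5 calls among 22 genes of these factors and their partners. Of 20 genes for p53 and its direct targets, 6 rose and 1 fell at 1.25 µM, against 4.94% of genes tested called higher and 6.36% called lower. The part of the cell cycle state in the falls of the repair genes was not tested.

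Reads of a gene can be shared with an overlapping neighbour. In GENCODE 29, exons of 20 of the 40 genes overlap those of another gene, 6 of them on the same strand, and the strand setting of the authors' counting is not given in the sources used here. Of the called genes, MSH6 overlaps FBXO11, FANCL overlaps VRK2, FANCI overlaps POLG, MRE11 overlaps ANKRD49, FANCA overlaps ZNF276 and FANCD2 overlaps FANCD2OS, all on opposite strands. None of these 6 neighbours was called at 1.25 µM or at 48 h: FBXO11 changed by -0.16 and 0.28, VRK2 by -0.62 and 0.22, and ANKRD49 by -0.38 and 0.49. CHEK1 overlaps STT3A on the same strand, and STT3A rose by 0.79 (adjusted p = 0.00472) at 1.25 µM. ATRIP shares its strand and exons with TREX1, so the level of ATRIP is uncertain, as are those of RAD54B with FSBP and of BRCA1 with AC060780.1. Pseudogene copies of CHEK2 also have rows, of which CHEK2P2 and CHEK2P6 reached 3.52 and 4.26 TPM. The low values of CHEK2 are therefore uncertain too.

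The defining markers of the labelled cells were present only in part. SOX10 and MITF, which define the melanocyte lineage, measured 8.29 to 34.7 and 2.87 to 16.8 TPM, while the pigment gene TYR was at 0 and PMEL, MLANA and DCT did not exceed 0.70, 2.37 and 1.46 TPM. Summed over 4 leukocyte markers and over 3 endothelial markers, no library exceeded 0.52 and 0.2 TPM. The 4 fibroblast markers summed to 0 to 13.1 TPM and the 4 keratinocyte markers to 27.8 to 103 TPM, nearly all from KRT10. Among these markers, KRT10 rose at 1.25 µM (1.00, adjusted p = 0.00158), and MITF fell at 1.25 µM (-0.96, adjusted p = 0.0498) and at 48 h (-1.76, adjusted p = 0.00171). The 8 melanoma markers, with S100B and S100A1 among them, summed to 16 to 56.3 TPM. SOX10, MITF, MLANA and S100B passed the filter. Of these 4, 3 had estimates above 0 at 1.25 µM, none called (median of the 4 0.50), and all 4 were below 0 at 48 h (median -0.31). The part of all these markers in the falls of the repair genes was not tested. DDIT3, TRIB3, PPP1R15A, IL24 and GDF15, 5 stress genes chosen because earlier results of these data showed them, rose at 0.63 µM at both times and at 1.25 µM. TPM keeps no read counts, so depth is unknown. Between 14647 and 17029 genes were above 0 per library, and Pearson r between libraries on log2(TPM + 1) ran from 0.866 to 0.956 over 153 pairs.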

How the data were processed

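Libraries were QuantSeq 3' ends, per the labels, and the values the authors deposited are TPM in 1 table. The tools named in the submitters' processing notes, without roles, are STAR 2.7, cutadapt 1.18, DESeq2 and RSEM 1.3.1, and the genome build is not given in the sources used here. Columns summed to 999999.1 to 1000000.5. Symbols came from a name table by Ensembl identifier, coordinates and overlaps from GENCODE 29 (GRCh38), promoters from RefSeq (GRCh38.p14).

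From the TPM, log2(TPM + 1) was fitted for genes that reached 1 TPM in 3 or more of the 18 libraries with limma 3.58.1 (R 4.3.3): 1 mean per group, 12 residual degrees of freedom, moderated variances with a mean-variance trend, two-sided tests and Benjamini-Hochberg adjustment over all 14936 genes in each of 7 comparisons. The procedure was tested on simulated data. Changes are on the log2(TPM + 1) scale, which understates those of low genes. The 40 genes and all lists were chosen with earlier results of these data known. Genes were named by role, by call and by size of change: up to 4 called genes of each role and the highest uncalled ones, and up to 4 called genes of each other list. Names outside this rule (the other uncalled genes among the 40, the 48 h and 0.63 µM examples of the other lists and overlapping neighbours) were chosen after their values were seen. Alternatives varied the pseudocount, filter, scaling, variance trend, replicate block, samples in the fit and each library in turn. Results of some single genes of the other lists are not reported here.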

Additional observations from a re-analysis of the deposited data

How the results depend on the processing

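Across all alternatives run, no value of the 40 genes that was called changed sign, and of 27 calls 22 were kept under every pseudocount, filter and scaling tried and 12 with each library left out in turn. The number of genes called lower at 1.25 against 0.63 µM, 1 as reported, was 0 without a filter, 4 with a filter at 5 TPM, 2 with median-of-ratios scaling, 2 with quantile normalization, 0 without the variance trend and 0 when the fit held only the 2 groups compared. At 0.63 µM for 24 h, 3 as reported, it was 1 without the variance trend and 0 with only the compared groups. At 1.25 µM for 24 h, 13 as reported, it was 3 with only the compared groups, while at 0.63 µM for 48 h, 10 as reported, it was 14. With 1 library left out the counts ran from 0 to 3 at 0.63 µM for 24 h, from 8 to 12 at 1.25 µM, from 4 to 11 at 0.63 µM for 48 h, from 0 to 2 for 1.25 against 0.63 µM and from 0 to 1 for the difference between times. The cause of these shifts was not tested.

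Whether replicate numbers pair the samples is not stated in the labels. Correlations of same-numbered deviations between each treated group and its untreated group ran from -0.09 to 0.08. With 3 libraries per group these values cannot decide whether the samples are paired. With the replicate number as a block, 3 genes were called lower at 1.25 against 0.63 µM in place of 1, 12 at 48 h in place of 10, and the counts at 0.63 and 1.25 µM for 24 h stayed at 3 and 13. TPM holds no counts, so what depth limits is unknown.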
